A study of Mus musculus with 4 samples.

Results

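Peaks that the authors placed in a promoter were taken from the ELF1 chromatin immunoprecipitation and sequencing (ChIP-seq) lists of wild-type (WT) and Elf1 knockout (KO) mouse macrophages. The lists give each peak 1 or more gene features, and a peak was kept when at least 1 of them read Promoter and the peak lay on chromosomes 1 to 19. This gave 148 of 5288 autosomal peaks in WT (2.80%, 95% exact Clopper-Pearson interval 2.37 to 3.28) and 126 of 5117 in KO (2.46%, 2.06 to 2.92), or 274 of the 11085 peaks in both lists with all chromosomes counted. All intervals here cover counting error only.

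The macrophages were grown from bone marrow of WT or Elf1 KO mice and given lipopolysaccharide (LPS), a bacterial cell wall component, for 6 h, which the labels call M1 macrophages. Each genotype gave 1 immunoprecipitated (IP) library, made with an antibody against ELF1, and 1 input library, and each IP list was called against the input of its own genotype, as the lists are named. Both genotypes had the same treatment, and the labels give no strain, sex, allele or number of mice. There is no replicate, so no difference between WT and KO carries a test, and the lists give a value only where a peak was called.

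ELF1 belongs to the ETS family of transcription factors, which bind DNA around a GGAA core. The ELF branch prefers CCGGAAGT, and such sites are common close to the start sites of broadly expressed genes. In macrophages, ETS factors such as PU.1 occupy many enhancers and promoters of immune genes. A promoter peak of such a factor usually lies close to the start of transcription, often in DNA rich in G, C and CpG. In cells without the factor, an IP measures what the antibody and the procedure recover without their target.

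The authors' promoter class reached about 2 kb upstream, well beyond the core promoter. By the authors' position relative to the nearest gene start, with upstream negative, the farthest member lay at −2069 bp in WT, at Gm23796, and at −1977 bp in KO, at Gm35077. The nearest peaks outside the class at this distance were WT peaks at −2031 bp from Gm15580 and −2033 bp from Gm13687, and a KO peak at −2011 bp from Gm23605. Farther in, at −2022 and −2016 bp, were the WT members at Slitrk6 and Cox17, each with a pileup of 5. The pileups, the number of fragments stacked at the summit, were 7, 6 and 8 at the 3 peaks outside, against 6 at both Gm23796 and Gm35077. The peaks on either side of the edge were thus of similar height. The edge was not sharp, since 3 WT members lay more than 2000 bp upstream and 3 peaks of each list lay upstream within 2000 bp without a Promoter entry, the nearest at −5 bp in WT and −22 bp in KO.

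The DNA under the peaks is shown first for members found in both genotypes, and the first pair shows the repeats that carried 7 of these. All sequences are GRCm38 reference, read 5′ to 3′. The Gm10722 peak (chr9:3000360-3000615, plus strand) is major satellite, the tandem repeat next to mouse centromeres, and capitals mark 8-base words that occur more than once in it. The Gm29163 stretch (chr9:83939539-83939618, plus strand) is the middle of a CA repeat, with capitals at the few bases other than C or A.

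Gm10722: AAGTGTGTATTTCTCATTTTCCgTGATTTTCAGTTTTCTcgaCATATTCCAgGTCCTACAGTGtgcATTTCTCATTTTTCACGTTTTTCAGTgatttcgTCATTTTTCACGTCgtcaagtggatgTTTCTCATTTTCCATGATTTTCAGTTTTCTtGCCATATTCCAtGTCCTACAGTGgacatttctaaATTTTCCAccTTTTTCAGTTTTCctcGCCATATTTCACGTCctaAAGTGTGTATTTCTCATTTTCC
Gm29163: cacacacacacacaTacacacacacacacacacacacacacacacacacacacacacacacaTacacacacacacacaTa

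The next set shows peaks found in 1 list that lie upstream of genes named in the results, among them the 1 member that held the ELF site. These are the WT peaks at Akr1c18 (chr13:4151268-4151503), Mx2 (chr16:97533457-97533684) and Ccl8 (chr11:82113571-82113781), and the KO peaks at Olfr1301 (chr2:111750425-111750636) and Gm24898 (chr16:21773511-21773750), all on the plus strand. Capitals mark GGAA or its reverse complement TTCC, except in Gm24898, where they mark the reverse complement of CCGGAAGT.

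Akr1c18: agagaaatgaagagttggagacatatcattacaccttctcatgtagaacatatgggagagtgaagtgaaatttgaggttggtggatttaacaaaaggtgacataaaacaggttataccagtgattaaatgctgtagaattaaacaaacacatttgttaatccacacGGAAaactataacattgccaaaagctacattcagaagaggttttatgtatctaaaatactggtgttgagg
Mx2: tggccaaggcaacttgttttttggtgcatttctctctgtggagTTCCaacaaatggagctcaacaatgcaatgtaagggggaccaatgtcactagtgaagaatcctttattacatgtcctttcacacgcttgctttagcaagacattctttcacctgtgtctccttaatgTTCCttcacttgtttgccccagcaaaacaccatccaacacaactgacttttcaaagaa
Ccl8: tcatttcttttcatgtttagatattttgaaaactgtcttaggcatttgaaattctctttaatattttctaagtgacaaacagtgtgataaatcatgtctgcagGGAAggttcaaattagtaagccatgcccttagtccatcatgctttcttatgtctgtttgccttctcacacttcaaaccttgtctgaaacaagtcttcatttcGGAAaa
Olfr1301: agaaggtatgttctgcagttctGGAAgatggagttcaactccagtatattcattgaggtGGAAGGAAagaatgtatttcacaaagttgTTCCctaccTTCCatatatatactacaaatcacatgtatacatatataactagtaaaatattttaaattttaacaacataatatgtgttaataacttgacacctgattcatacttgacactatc
Gm24898: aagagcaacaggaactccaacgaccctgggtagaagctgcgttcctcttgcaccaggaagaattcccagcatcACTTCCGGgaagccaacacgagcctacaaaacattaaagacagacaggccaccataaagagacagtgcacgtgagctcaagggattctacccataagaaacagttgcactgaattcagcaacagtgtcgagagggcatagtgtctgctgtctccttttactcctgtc

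Most promoter-class peaks were only a few fragments high in both genotypes. In WT, 20 members had a pileup of 5, 69 of 6, 29 of 7 and 12 of 8, so that 130 of 148 (87.8%, 81.5 to 92.6) had at most 8. In KO, 23 had 5, 35 had 6, 35 had 7 and 17 had 8, and 110 of 126 (87.3%, 80.2 to 92.6) had at most 8. The median pileup was 6 in WT (95% order-statistic interval 6 to 6) and 7 in KO (6 to 7). All other autosomal peaks had the same medians, 6 in WT and 7 in KO. The median height at a promoter position was thus no greater than elsewhere.

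**Figure D1:**
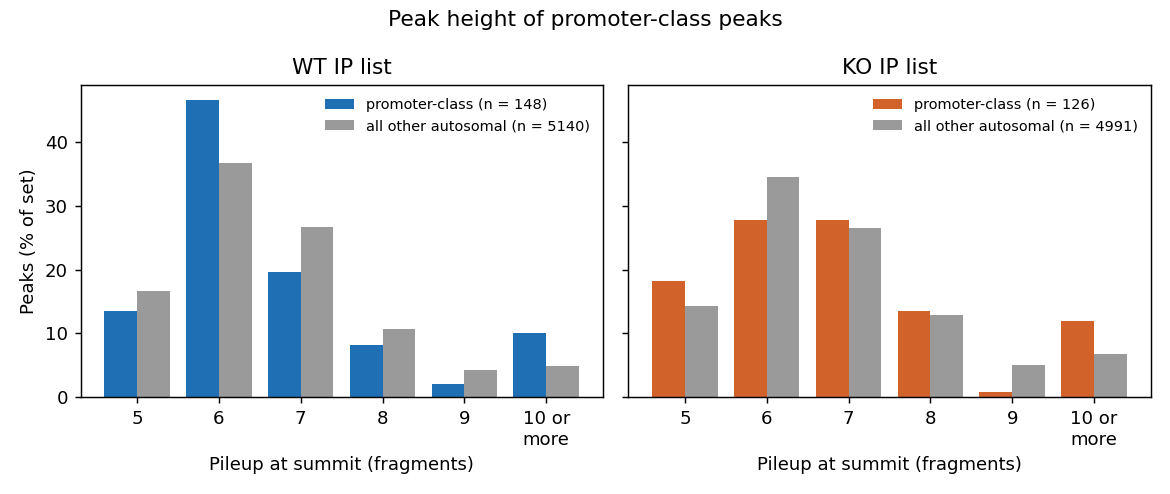
The share of peaks (vertical axis, percent of each set) at each pileup (horizontal axis, fragments at the summit) is drawn for the promoter-class peaks (coloured) and all other autosomal peaks (grey) of the WT list (left) and the KO list (right). Pileups of 5 to 8 hold 87.8% of WT and 87.3% of KO promoter-class peaks, and the class of 10 or more holds 10.1% and 11.9%.

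The authors' fold enrichment, pileup over local background after adding 1 to both, had a median of 3.50 in WT and 3.42 in KO members. The same medians held for the other peaks. The local background was within 2% of its lowest value, 1.00 fragments in WT and 1.05 in KO, at 87 of 148 WT members (58.8%) and 76 of 126 KO members (60.3%). At a fixed background the fold is set by the whole number of fragments alone. Within that 2%, a WT pileup of 6, seen at 43 such members, gave a median fold of 3.50. A pileup of 7 at 23 members gave a median of 4.00, and a pileup of 8 at 5 members gave 4.47. In KO the same pileups, at 26, 20 and 10 members, gave medians of 3.42, 3.90 and 4.39. The 148 WT members held 51 distinct pairs of pileup and fold and the 126 KO members 42.

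Widths also matched the rest of each list. The median width was 238 bp in WT (233 to 249, range 205 to 532) and 243.5 bp in KO (235 to 251, range 211 to 789), beside 238 and 246 bp for the other peaks. The widest was the KO peak upstream of the small nucleolar RNA gene Gm25388, at 789 bp with a pileup of 9.

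High members were more frequent than in the list as a whole in WT and, at the edge of the interval, in KO, and this rested on members present in both genotypes. A pileup of 10 or more occurred at 15 of 148 WT members (10.1%, 5.78 to 16.2), where 5.09% of all autosomal WT peaks had one, and at 15 of 126 KO members (11.9%, 6.82 to 18.9), where 6.82% did. Without the members that overlapped a peak of the other list, the counts were 6 of 139 in WT (4.32%, 1.60 to 9.16) and 6 of 117 in KO (5.13%, 1.90 to 10.8). The authors' q was below 0.05 at 18 of 148 WT members (12.2%, 7.37 to 18.5), against 5.16% of all autosomal WT peaks, and at 14 of 126 KO members (11.1%, 6.21 to 17.9), against 5.73%. Without the shared members these became 9 of 139 (6.47%, 3.00 to 11.9) and 5 of 117 (4.27%, 1.4 to 9.69), both near the share in the whole list. The whole list still includes its shared peaks, so these 2 sets are not matched.

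The peaks found with and without ELF1 were few and lay in repeats or in 7SL genes. By an overlap of at least 1 bp, 9 of 148 WT members (6.08%, 2.82 to 11.2) met a KO peak, where 1.04% of all autosomal WT peaks did. The same 9 pairs made up 7.14% of KO members (3.32 to 13.1), where 1.07% of all KO peaks overlapped a WT peak. The share was smaller under 3 restrictions. It fell to 1.49% in WT and 1.89% in KO without peaks of 90% or more masked bases. With Promoter as the only feature it was 1.08% and 1.18%. At pileups under 1000, a restriction added after the data were seen, it was 2.11% and 2.52%. It was larger, 8.74% and 14.5%, at a −log10 p of at least 4. At q below 0.05, also added afterwards, it was 50.0% and 64.3%. The share in the whole list was not computed under these restrictions, so these shifts cannot be set against it. In every pair the partner was itself a promoter-class peak. Pileup was higher in KO in 7 of the 9 pairs and fold was higher in KO in 5. Of the 9 pairs, 6 lay in the major satellite repeat, so they do not count as independent places. Among these 6, KO was higher in 6 by pileup and in 5 by fold. Among the other 3 pairs, KO was higher in 1 by pileup and in 0 by fold.

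A pair of genes on chromosome 12 for 7SL RNA, which forms the core of the signal recognition particle, gave the shared members of highest fold. Rn7s1 had a pileup of 32 in WT and 16 in KO and a fold of 15.5 and 7.59. Its peak was assigned to 3 genes, Rps29, which encodes a protein of the small ribosomal subunit, and the microRNA genes Gm47295 and Gm47287. Rn7s2, assigned to the microRNA genes Gm47305 and Gm47299, had a pileup of 26 in WT and 16 in KO and a fold of 12.3 and 7.31. Both were higher in WT, but 1 library per genotype gives no spread to set this against. The genes are near-identical copies, so how reads were divided between them is uncertain.

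The Gm29163 peak in the CA repeat, in an intron of Bckdhb and upstream of a small nuclear RNA gene, had a pileup of 20 in WT and 25 in KO. Its fold was 7.81 in WT and 6.03 in KO, the opposite order, since the local background was 1.69 in WT and 3.31 in KO. Runs of CA or GT made up 98.1% of it.

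The other 6 shared members lay in major satellite within the first part of chromosome 9, upstream of Gm10722, Gm11168, Gm10720, Gm10717 (2 peaks) and Gm10715. GENCODE M21 lists these predicted genes as protein-coding. Their pileups ran from 6009 to 22714 in WT and from 6301 to 23650 in KO, and KO was 1.01 to 1.08 times WT. Their local backgrounds were as extreme, 3635 to 12064 in WT, so the fold was low, 1.60 to 2.13 in WT and 1.72 to 2.15 in KO. These 6 were the tallest members of the WT list and had low folds in both lists. A 7th satellite peak, the second at Gm11168, was called in KO only, with a pileup of 9321, a fold of 1.78 and the nearest WT peak 0.552 kb away. Genome copies of such repeats are nearly identical, so their reads are uncertain in position.

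**Figure D2:**
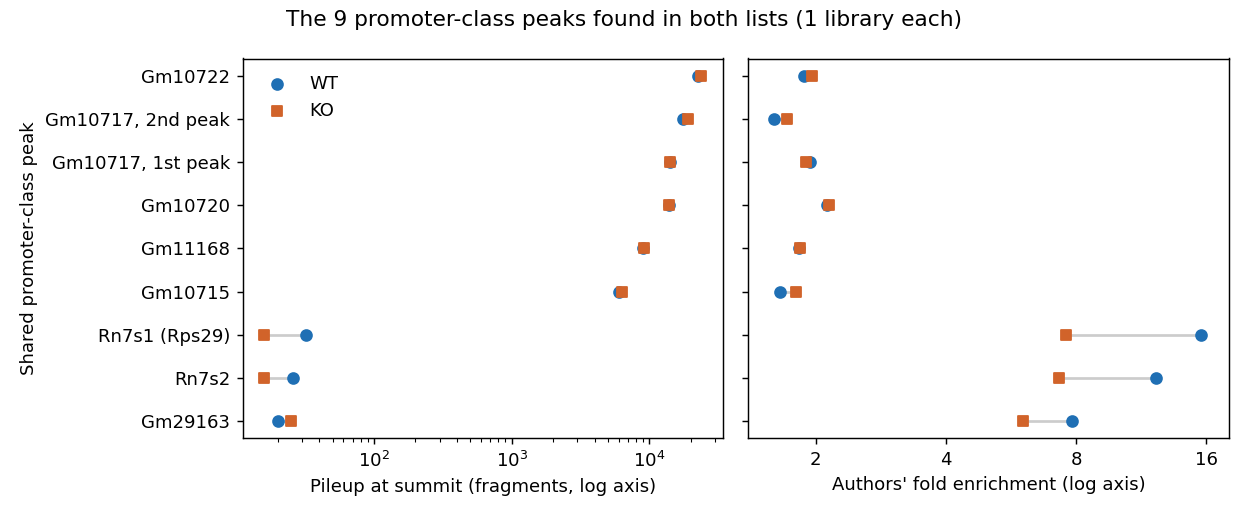
Pileup (left, fragments at the summit, log axis) and the authors' fold enrichment (right, log axis) of the 9 promoter-class peaks present in both lists, with a circle for WT, a square for KO and a grey line between them. The 6 satellite peaks have pileups from 6009 up but folds of at most 2.15, while the 7SL genes reach folds of 15.5 and 12.3 in WT and 7.59 and 7.31 in KO.

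The remaining members were private to 1 list. The 139 WT members without a partner lay a median of 197 kb (153 to 237) from the nearest KO peak, and the 117 KO members 227 kb (156 to 280) from the nearest WT peak. All other unshared peaks lay closer, at medians of 145 kb (138 to 151) in WT and 137 kb (130 to 143) in KO. A peak of the other list lay within 10 kb of 3 WT members (2.16%) and 8 KO members (6.84%). For the other unshared peaks these shares were 6.22% in WT and 6.45% in KO. Of these members, 1 in WT and 2 in KO had a peak of the other list within 1 kb. One such place, upstream of the processed pseudogenes Gm47463, Gm6343 and Gm47462 on chromosome 13, had a WT peak (pileup 7) and a KO peak (pileup 5) that lay 84 bp apart without touching.

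The private members with q below 0.05 numbered 9 in WT and 5 in KO. Akr1c18, which encodes a hydroxysteroid dehydrogenase, had a pileup of 10 and a fold of 5.50 (q 0.00122) at 731 bp upstream, and the nearest KO peak was 19.7 kb away. Emc2, a subunit of the membrane protein complex of the endoplasmic reticulum, had a pileup of 9 and a fold of 5.0 (q 0.0111). Vmn1r157, a vomeronasal receptor gene, had 10 and 4.80 (q 0.0114), with a KO peak 21.6 kb away.

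The other 6 in WT were Gm24105, Gm12862, Gm23462, Gm9733, Gm21083 and the pseudogene Obox3-ps7. The Gm24105 peak had the lowest q of the WT private members, 0.000452, with a pileup of 13 and a fold of 5.21. This peak resembled the shared Rn7s1 and Rn7s2 peaks in sequence. It had 42.1% to 44.6% of its distinct 16-base words in common with each of them in either list, as examined after the values were seen.

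In KO the 5 private members with q below 0.05 were Gm22046, Gm25597, Gm25388, Gm21190 and the second satellite peak at Gm11168. Gm22046 (pileup 26, fold 3.39, q 0.000816) and Gm25597 (pileup 12, fold 4.35, q 0.0170) are small nucleolar RNA genes in an intron of Snhg14, a long noncoding RNA that hosts arrays of them. Both peaks were fully repeat-masked. Gm21190 (pileup 23, fold 3.11) has a WT counterpart of sorts in Gm21083 (pileup 31, fold 2.56): both peaks lay in introns of Gm21847 on chromosome 5 but did not overlap, and the nearest peaks of the other list were 12.5 kb and 43.8 kb away.

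The genes named were a mixture close to that of the whole annotation. WT members named 156 genes and KO members 131, and 14 genes were named in both, 8.97% of the WT and 10.7% of the KO genes. Of the 14, 11 came from the 9 overlapping pairs and 3 were the pseudogenes of chromosome 13. Most peaks named 1 gene, 141 of 148 in WT and 120 of 126 in KO. Another feature, such as an intron or exon of a second gene, was listed for 55 WT members (37.2%, 29.4 to 45.5) and 41 KO members (32.5%, 24.5 to 41.5). The authors marked the nearest gene as a transcription factor at 7 of 148 WT members and 4 of 126 KO members. They did so at 2.68% of the other WT and 3.03% of the other KO peaks. Among the WT members were Pax3, a developmental factor, and Prdm2, a histone methyltransferase (pileup 6 at both). Among the KO members was Ctcfl, a testis paralogue of CTCF (pileup 6). These genes were singled out after the values were seen.

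Protein-coding genes made up 57 of the 156 in WT (36.5%, 29.0 to 44.6) and 44 of the 131 in KO (33.6%, 25.6 to 42.4), beside 40.6% of all autosomal GENCODE M21 genes. Pseudogenes were 40 (25.6%) and 39 (29.8%), beside 22.6%. Small RNA genes were 25 (16%) and 18 (13.7%), beside 11.1%. Long noncoding RNA genes, with those still to be experimentally tested (TEC), were 33 (21.2%) and 29 (22.1%), beside 24.6%. The intervals of all of these classes in KO include the share in GENCODE, and so do those in WT. Symbols of predicted or unnamed genes were more frequent than in the annotation, 66.0% in WT (58.0 to 73.4) and 66.4% in KO (57.6 to 74.4), beside 54.6%. In all, 0.274% of autosomal protein-coding genes were named in WT and 0.211% in KO.

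**Figure D3:**
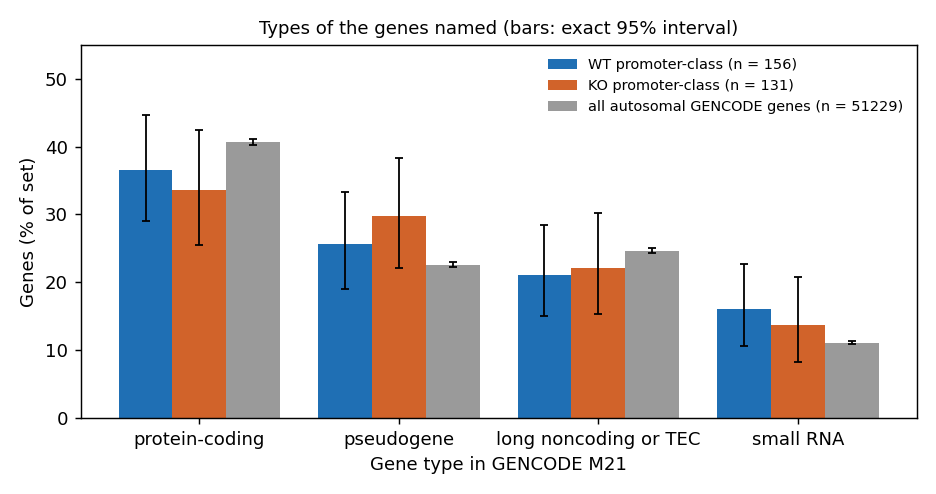
The share of named genes (vertical axis, percent) of each type in GENCODE M21 (horizontal axis) is drawn for WT members (blue), KO members (orange) and all autosomal genes (grey), with exact 95% intervals as error bars. Protein-coding genes are 36.5% in WT, 33.6% in KO and 40.6% in the annotation, and the intervals of both genotypes include the grey bar in every class drawn.

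Of the genes listed for the LPS response, macrophages and other cells, too few were named for a comparison with all genes. Lists of LPS and NF-kB signalling (32 autosomal genes), the ETS family (24), inflammatory effectors (37), interferon response (35), genes described as targets of ELF1 (22) and macrophage lineage (26) were counted. Markers of stromal (16), erythroid (11), B (13) and T cells (17) and of neutrophils (14) were added, and together the lists held 243 genes. WT members named 1 of them and KO members 0, where 0.305% and 0.256% of all autosomal genes were named. A count of 0 says only that no promoter-class peak was called there, since a gene below the peak threshold is not listed.

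The 1 gene was Mx2, an interferon-induced antiviral GTPase that GENCODE lists as a polymorphic pseudogene in the reference strain. Its WT peak lay 1738 bp upstream of its start with a pileup of 7 and a fold of 3.97 (q 0.279), was 73.7% repeat-masked and had no KO peak within 393 kb. Ccl8, a monocyte chemokine gene singled out after its values were seen, had a WT peak 1509 bp upstream with a pileup of 6 and a fold of 3.49 (q 0.525), and the nearest KO peak was 297 kb away. Klra2, a lectin-like receptor gene (pileup 6, fold 3.48), and Prg2, which encodes the eosinophil granule major basic protein and was also singled out afterwards (pileup 6, fold 2.98), were found in WT. Wnt5a, a secreted signalling protein (pileup 6, fold 3.42), and Clec2g, a lectin-like gene (pileup 7, fold 3.90), were found in KO and were likewise singled out afterwards. All of these had q above 0.05 and pileups of 6 or 7, the commonest heights of both lists.

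Chemosensory receptors, large gene families that macrophages are not known for, were also among the genes named. Olfactory receptor genes and pseudogenes (Olfr) numbered 7 of 1399 in WT (0.50%) and 10 in KO (0.715%), beside the 0.305% and 0.256% of all autosomal genes. No test was made of these shares. The tallest in KO was Olfr1301, with a pileup of 8 and a fold of 4.39, and those of highest pileup in WT were Olfr595-ps1 with 8 and Olfr259 with 7. Vomeronasal receptor genes and pseudogenes (Vmn) numbered 3 of 561 in WT (0.535%) and 5 in KO (0.891%). Of these, 3 in WT but only 1 in KO are protein-coding. Among them were Vmn2r52 and Vmn1r103 in WT and Vmn1r167 in KO, each with a pileup of 7. Zinc finger genes with the prefix Zfp numbered 2 of 411 in WT (Zfp87 and Zfp987, each with a pileup of 7) and 0 in KO. The defensin Defb2 (pileup 5) and the trace amine receptor pseudogene Taar7c-ps (pileup 6) appeared in WT only, and no Mrgpr or Hist gene appeared in either list. With counts this small, the families cannot be ranked between genotypes.

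Within the authors' promoter class, members did not gather at the start site. The class covers mainly the upstream side, so the share upstream largely follows from how members were chosen. With Promoter as the only feature it was 97.8% in WT and 98.8% in KO. By the authors' position, 136 of 148 WT members (91.9%, 86.3 to 95.7) and 112 of 126 KO members (88.9%, 82.1 to 93.8) lay upstream of the nearest gene. The others were mostly peaks whose nearest gene was another than the promoter gene, such as Emc2 in WT and Rrp15 in KO. The median position was −927.5 bp in WT (−1072 to −698) and −1026 bp in KO (−1184 to −813).

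Of the upstream WT members, 34 lay within 500 bp of the start, 35 from there to 1000 bp, 34 from there to 1500 bp and 33 in a wider last step that ends at 2100 bp. KO members numbered 22, 27, 36 and 27 in the same steps. Only 11 WT members (7.43%, 3.77 to 12.9) and 8 KO members (6.35%, 2.78 to 12.1) lay within 100 bp of the start of the nearest gene.

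**Figure D4:**
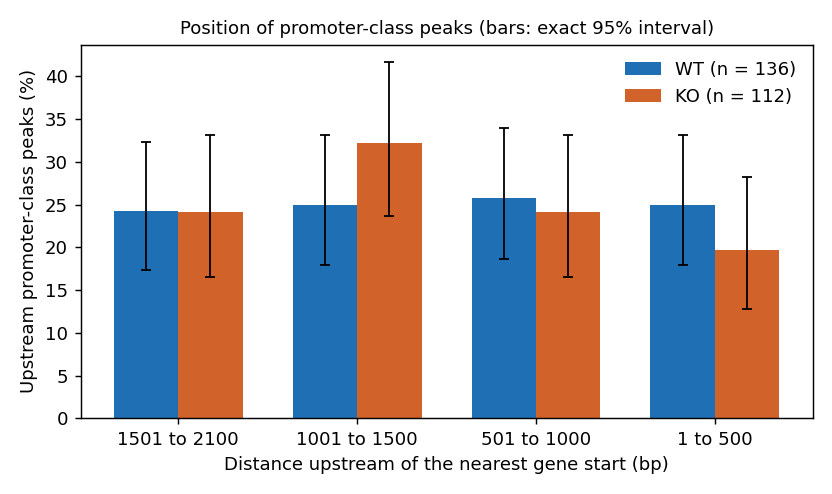
The share of upstream members (vertical axis, percent, with exact 95% intervals) in steps of distance from the nearest gene start (horizontal axis, bp, start site to the right) is drawn for WT (blue) and KO (orange). The last step, which ends at 2100 bp, is wider than the others. The WT bars lie at 24.3% to 25.7%, and the KO step nearest the start is the lowest at 19.6%, with intervals that overlap those of the other steps.

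Measured to their own start, the named protein-coding genes lay a median of 1010 bp downstream of the peak in WT and 1077.5 bp in KO. The nearest in WT were Smim18, a small membrane protein gene at 30 bp (pileup 6), Olfr124 at 38 bp (pileup 5), Gm9733 at 72 bp (pileup 10) and Tmem265 at 128 bp (pileup 6). The nearest in KO were Olfr1036 at 21 bp (pileup 6), Gm4567 at 66 bp (pileup 8), Gm21028 at 115 bp (pileup 7) and Tmem88b at 242 bp (pileup 7). Apart from Gm9733 (q 0.0445), none of these had q below 0.05.

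The ELF site was rare in members and in the other peaks. CCGGAAGT, searched on both strands over the whole peak, was found in 0 of 148 WT members, which allows a share of up to 2.03%, and in 7 of the 5140 other WT peaks (0.136%). In KO it was found in 1 of 126 members (0.794%, 0.0201 to 4.34) and in 4 of the 4991 others (0.0801%). The 1 KO member, printed above, lay 483 bp upstream of the small nuclear RNA gene Gm24898, with a pileup of 7, a fold of 3.44 and q 0.408. The authors list it in an intron of Ehhadh, a gene of peroxisomal fatty acid oxidation, but 96 of its 240 bases lie in an exon in GENCODE M21. The shorter core CGGAAG, which lies within CCGGAAGT, was found in 0 of 148 WT members and 82 of the others (1.60%), and in 2 of 126 KO members (1.59%), Gm24898 and Extl1, and 87 of the others (1.74%).

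The letters GGAA alone, which occur often by composition, were found on either strand in 139 of 148 WT members (93.9%) and 119 of 126 KO members (94.4%), beside 90.9% and 92.5% of the others. Per kb of peak they occurred 11.1 times in WT members and 11.3 times in KO members, beside 10.4 and 11.0. Members of both genotypes thus differed little in these letters from peaks elsewhere.

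Members were poor in GC and CpG, much as the other peaks were. The median GC content was 38.7% in WT members (36.8 to 40.0) and 40.3% in KO members (37.9 to 41.3), beside 37.1% and 39.0% of the other peaks. No CpG was present in 33.1% of WT and 27.8% of KO members, beside 33.2% and 28.2%. Repeat-masked bases made up a median of 22.1% of a WT and 17.6% of a KO member, beside 21.9% and 23.0%. Peaks with 90% or more masked bases were less frequent among WT members, 9.46% (5.27 to 15.4) beside 16.8% of the others. In KO they were 15.9% (9.97 to 23.4) beside 20.9%, which the interval includes.

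The genes that were named had starts poorer in GC than protein-coding genes in general. Over 250 bp before to 50 bp after the gene start, read from the GRCm38 genome, the median GC content was 45.0% for the 57 WT genes (41.3 to 49) and 45.5% for the 44 KO genes (42.0 to 50.3), beside 55.3% for 20802 autosomal protein-coding genes. Left without olfactory and vomeronasal receptors and predicted genes, a choice made after the values were seen, the medians were 49.5% for 32 WT genes (45.0 to 58.3) and 51.8% for 22 KO genes (47.3 to 59.7). The reference without them was 57% over 17468 genes, which both intervals include. In these start regions CCGGAAGT was found at 2 of 57 WT genes (3.51%), Aftph and Kif22, and 1 of 44 KO genes (2.27%), Rrp15, beside 4.80% of all. The peaks that named these 3 genes lay 1576, 1591 and 756 bp from those starts and had pileups of 8, 6 and 6.

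**Figure D5:**
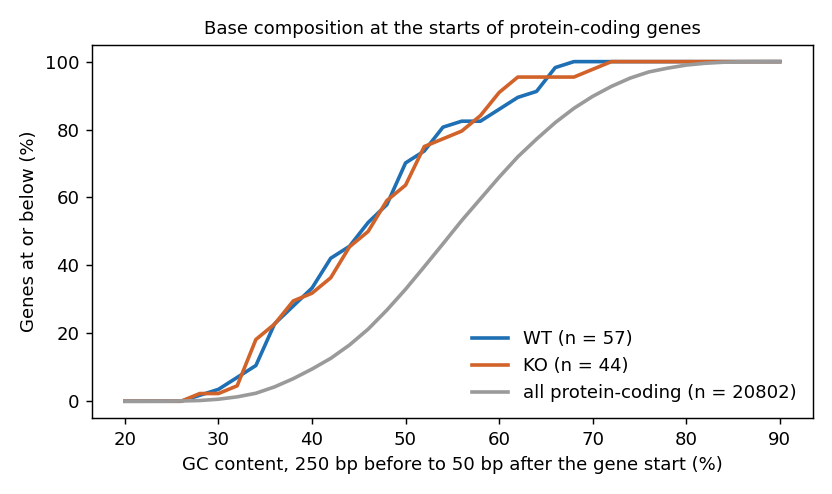
The cumulative share of genes (vertical axis, percent) at or below each GC content of the start region (horizontal axis, percent) is drawn for protein-coding genes named by WT members (blue), by KO members (orange) and for all autosomal protein-coding genes (grey). The WT and KO lines run together, with medians of 45.0% and 45.5%, to the left of the grey line at 55.3%.

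A few members shared sequence with members elsewhere in the genome, across the genotypes too. Members with at least 100 distinct 16-base words in common included the WT peaks at Gm28935 and Olfr631 with the KO peak at Gm38385, and the KO peaks at Gm40603 and Gm27452, an examination made after the values were seen. The WT Gm28935 peak, all of it repeat-masked, shared 66.7% of its words with the KO Gm38385 peak on another chromosome. This pair of like sequence was thus named under different genes in the WT and the KO list. Several of the other pairs joined the Rn7s1, Rn7s2 and Gm24105 peaks.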

How the data were processed

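ChIP-seq of ELF1 was deposited as 1 peak list per IP library, and input reads were not used. According to the series' design text, Trimmomatic 0.36 filtered reads, Bowtie2 aligned them to GRCm38 and SAMtools removed duplicates. Versions of Bowtie2 and SAMtools, the peak caller with its threshold, and the feature annotation tool were not given in the sources used here. Per the file headers, each deposited peak carries −log10 values of p and q, a pileup signal and a fold enrichment, beside the authors' gene features and position. Peaks were called per library. A Poisson tail at the background recovered from pileup and fold matched the deposited −log10 p within 0.01 for all 5276 WT and 5102 KO autosomal peaks whose tail could be computed, and each deposited −log10 p exceeded 3. Library totals are not in these lists, so depth is unknown.

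Python 3.11.15 with pandas 2.3.3, scipy 1.17.1 and pysam 0.24.0 was used, and the scripts were tested on simulated data. A shared peak overlapped the other list by at least 1 bp. Gene types and starts came from GENCODE M21 (GRCm38), and sequence and repeat masking from the GRCm38 reference genome. The RefSeq promoter table held 57.9% of the WT and 61.4% of the KO protein-coding genes, under the 80% needed, so that check was void and start regions were read from the genome. Shares carry exact Clopper-Pearson and medians order-statistic 95% intervals, for counting error only, and a count of 0 allows 3 counts of the total. Peaks of 1 library are not replicates, so no p-value was computed.

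Named genes were, per list, the 10 members of highest pileup, the 10 nearest to a protein-coding start, those with 3 or more promoter genes, those with q below 0.05 or with CCGGAAGT, all genes named in both lists, and up to 4 by pileup of each gene list or family prefix. Not all are printed, and some items are not reported here. The members, gene lists and tests were chosen with earlier results of these data known. Alternatives were a stricter p, members with no other gene feature, no highly masked peaks, X and Y added, other overlap rules and another start site.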

Additional observations from a re-analysis of the deposited data

How the results depend on the processing

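Each of 14 values (peaks, genes, protein-coding share, median pileup, median width, share upstream and share overlapping, in each genotype) was recomputed under the alternatives, 92 values in all. Counts within 1.5 times, and shares and medians within the main 95% interval, were 63. The other 29 follow.

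At a −log10 p of at least 4, KO members fell to 62 and KO genes to 65, the median pileup was 7 in WT and 7.5 in KO, and 14.5% of KO members were shared. With Promoter as the only feature, WT members were 93 and WT genes 97. The share upstream was then 97.8% in WT and 98.8% in KO, and the share overlapping 1.08% and 1.18%. Leaving out peaks with 90% or more masked bases gave shares overlapping of 1.49% in WT and 1.89% in KO.

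Restrictions added after the data were seen were a pileup under 1000 and a q below 0.05. The first left 2.11% of WT and 2.52% of KO members shared. The second left 18 WT and 14 KO members, naming 21 and 15 genes, with protein-coding shares of 52.4% and 46.7%. Their median pileups were 23 and 3163.5, and their median widths 256.5 and 267.5 bp. Their shares upstream were 55.6% and 42.9%, and their shares overlapping 50.0% and 64.3%. The overlap of the whole list was not recomputed under any restriction.

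Adding X and Y, a mutual overlap of 50%, a distance of up to 500 bp, promoter-class partners only and the nearest GENCODE start kept each value they apply to within those limits. No paired analysis was possible because each genotype has 1 IP library and no result comes from a test. A member 5 to 8 fragments high rests on few reads, and fragment counts at places without a called peak were not analysed here.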
